A study of Mus musculus with 7 samples.

Results

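The chemokines and their receptors were examined in the choroid plexus of mouse embryos exposed to red blood cells. The group holds every gene of the count table whose symbol is that of a CC, CXC, CX3C or XC chemokine, of a signalling chemokine receptor or of an atypical receptor. Its genes were taken by symbol, but the rule was chosen with earlier results of these data known. The symbols matched 64 of the 40873 genes analysed: 39 ligand genes, 23 receptor genes and 2 genes named as pseudogenes, Ccl19-ps1 and Ccl19-ps2. Cxcl11, counted among the ligands, is also classed as a transcribed pseudogene by RefSeq. Pf4 and Ppbp, which are chemokines under other symbols, fall outside this choice and are given separately.

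The samples were poly(A) RNA libraries of lateral-ventricle choroid plexus from CD-1 embryos, an outbred mouse stock, all with a wild-type genotype and all marked as batch 1. One group of 3 libraries came from embryos treated with red blood cells, which had been collected as whole blood from a donor litter at E14.5, kept in sodium citrate and washed in saline. The other group of 4 libraries came from embryos given saline. Below, the treated libraries are red blood cells 1 to 3, and values are listed in the order of the replicate numbers. Tissue was taken at E15.5, 24 h after treatment, and tissue was pooled. The labels do not say how many embryos each pool held, from which litters, or how many white cells the washed blood still contained. The p-values therefore measure the spread between these libraries only.

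Chemokines are small secreted proteins, apart from a pair that are made on the cell surface, and they direct the movement of leukocytes along a gradient. They act through receptors with 7 transmembrane helices, most of which signal through inhibitory G proteins, while the atypical receptors bind and remove chemokines without that signalling. Most inflammatory chemokines are made little in resting tissue and are induced through NF-kB or interferon signalling. The choroid plexus is an epithelial tissue of the brain ventricles that makes cerebrospinal fluid, and it houses resident macrophages that carry the fractalkine receptor Cx3cr1.

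The libraries held 4393860 to 8386928 counts, so that 3 counts corresponded to 0.358 to 0.683 CPM, counts scaled to a common library size. Epithelial markers were abundant in all 7 libraries, with a summed level of 16937 to 22223 CPM over 10 genes, most of it Ttr. The library red blood cells 2 stood apart for many of the genes described here, and red blood cells 3 had the highest summed level of 8 mesenchyme and pericyte markers, at 3054 CPM against 1633 to 2093 CPM in the other 6. In bulk tissue, fewer cells of a type and less RNA per cell cannot be told apart. The 8 erythroid markers summed to 2246 to 2842 CPM with red blood cells and 2204 to 3276 CPM with saline, so the ranges overlapped.

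Promoters of 5 ligands are shown because their counts lay mainly in the treated libraries. Cxcl2, with 3 counts in all, is shown beside its neighbour Cxcl1 for the letters they share. Each line gives the 250 bases before the RefSeq start of the gene in GRCm38.p6, written on the gene's own strand. Capitals mark matches to a kappaB consensus, the binding motif of NF-kB, or, for the first capitals in Cxcl10, to a pair of GAAA half-sites with 2 free bases between them, the core of interferon-response elements.
Cxcl10, chr5:92348890-92349139, minus strand: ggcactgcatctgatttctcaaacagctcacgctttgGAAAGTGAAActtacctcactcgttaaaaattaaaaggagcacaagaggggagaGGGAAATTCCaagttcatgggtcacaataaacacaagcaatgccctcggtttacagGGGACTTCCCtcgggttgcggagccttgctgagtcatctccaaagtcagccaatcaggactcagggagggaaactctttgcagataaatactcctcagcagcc
Cxcl1, chr5:90890995-90891244, plus strand: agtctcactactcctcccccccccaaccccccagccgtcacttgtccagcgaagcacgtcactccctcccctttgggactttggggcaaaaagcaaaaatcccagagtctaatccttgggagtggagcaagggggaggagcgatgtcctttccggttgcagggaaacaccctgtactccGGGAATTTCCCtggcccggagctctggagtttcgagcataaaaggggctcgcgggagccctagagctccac
Cxcl2, chr5:90903649-90903898, plus strand: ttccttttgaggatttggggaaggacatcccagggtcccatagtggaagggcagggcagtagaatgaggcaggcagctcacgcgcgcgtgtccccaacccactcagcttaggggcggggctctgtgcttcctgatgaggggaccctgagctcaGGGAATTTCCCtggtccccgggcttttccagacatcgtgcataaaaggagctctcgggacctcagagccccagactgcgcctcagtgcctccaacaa
Ccl20, chr1:83116516-83116765, plus strand: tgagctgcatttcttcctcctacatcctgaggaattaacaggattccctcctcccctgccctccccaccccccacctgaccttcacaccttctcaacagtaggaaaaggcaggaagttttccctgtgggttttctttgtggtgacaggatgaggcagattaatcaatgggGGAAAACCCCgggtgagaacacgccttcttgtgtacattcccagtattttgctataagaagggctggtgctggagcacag
Ccl12, chr11:82101595-82101844, plus strand, with no match to either motif: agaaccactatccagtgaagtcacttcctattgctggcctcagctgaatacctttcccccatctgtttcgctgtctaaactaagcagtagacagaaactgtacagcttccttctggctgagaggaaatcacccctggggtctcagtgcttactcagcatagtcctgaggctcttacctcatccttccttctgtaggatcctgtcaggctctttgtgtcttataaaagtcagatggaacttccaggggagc

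Both strands were searched. In Cxcl10 the GAAA pair lay 213 to 204 bases before the start, and 2 kappaB matches lay at 159 to 150 and at 103 to 94. In Cxcl1 the plus-strand kappaB match lay 71 to 62 bases before the start and read GGGAATTTCC, and a minus-strand match overlapped it, shifted by 1 base. Cxcl2 held the same 10 letters at 97 to 88 bases before its start. Ccl20 held a minus-strand match at 80 to 71.

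Of the 64 genes, 47 had a promoter in the RefSeq table and 17 did not. The exact letters GGGAATTTCC stood in 4 of the 47 (Cxcl1, Cxcl2, Cxcl3 and Ccr3), against 0.0852% of 32851 start sites of all genes. These letters were taken from the Cxcl1 match itself, so Cxcl1 was certain to be counted, and Cxcl2 and Cxcl3 are its neighbours. For each motif the group is counted by gene and the background by start site. The kappaB consensus stood in 10 of the 47, against 3.90% of all start sites. Those 10 were Ackr2, Ccl20, Ccl9, Ccr3, Ccr6, Ccrl2, Cxcl1, Cxcl10, Cxcl2 and Cxcl3. The GAAA pair stood in 3 of the 47 (Ccl19, Cxcl10 and Cxcl14), against 2.98%. A match is a description of the letters and no evidence of binding. Several of the 10 had few counts: Cxcl2 had 3 over the 7 libraries and Ccr6 had 4.

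Across the 64 genes, Cxcl5, Cxcl10 and Ccl5 were nearly silent with saline and had counts in every treated library, and Ccl2 was low with saline and higher in every treated library. Other inflammatory ligands, such as Ccl9, Ccl6 and Ccl3, were present in both groups, and some, such as Cxcl2, Cxcl3 and Ccl8, had hardly any counts in either. The homeostatic ligands with at least 20 counts, apart from Cxcl16 and Ccl20, and the atypical receptors overlapped between the groups. Of the 64, 18 passed the count filter and were tested with edgeR, and 46 lay below it. Of those 46, 15 had at least 20 counts over the 7 libraries, 21 had 1 to 19 counts and 10 had none. None of the 18 passed an adjusted p of 0.05 in edgeR's quasi-likelihood test in either direction, where 0.0404% of the 14869 genes tested were called higher and 0.0202% lower. At an unadjusted p under 0.05, 6 of the 18 were higher with red blood cells, among them Cx3cr1, Ccl9, Cxcl16, Ccl6 and Ccl24, where 5.22% of all genes were. At the same threshold 1 of the 18 was lower, Cxcr4, where 4.32% of all genes were. The estimate was above 0 for 12 of the 18, against 49.9% of all genes, and the median log2 fold change was 0.71, against 0.00 over all genes tested. Without red blood cells 2 the median of the 18 was 0.20. Since some of the 18, such as Ccl24, passed the filter mainly through the treated libraries, these counts and medians are a description only.

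DESeq2, which gave an adjusted p to 40 of the 64, called 7 higher and 0 lower, where it called 1.11% of all genes higher and 0.291% lower. The 7 were Cxcl5, Cxcl10, Ccl2, Ccl12, Ccl5, Cxcl16 and Cx3cr1. With edgeR and no count filter, 54 of the 64 entered the fit and none was called, where 0.391% of all genes were called higher and 0.130% lower. In that fit 16 of the 54 were higher and 2 lower at an unadjusted p under 0.05, against 4.29% and 3.07% of all genes. Without red blood cells 3, edgeR called 5 genes of the group higher, where it called 1.49% of all genes higher: Cxcl10, Cx3cr1, Ccl12, Ccl9 and Ccl4.

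Of the 33 genes with at least 20 counts, 9 had every library treated with red blood cells above every saline library, which is 27.3%, against 4.77% of all genes with as many counts. Among the 9 were Cxcl5, Cxcl10, Ccl2, Ccl5, Ccl20, Cxcl16, Cxcr2 and Cx3cr1. None of the 33 lay wholly below saline, against 4.66% of all genes. With red blood cells 2 left out, 9 of the 33 lay wholly above saline, against 7.27%, and 0 wholly below, against 7.90%. These were the same 9 genes. A gene wholly above saline stays so when a treated library is left out, so their recurrence was fixed in advance and no gene was added. With 3 libraries against 4, an exact two-sided permutation test of one gene cannot give a p below 0.0571.

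Red blood cells 2 was the highest of its group for 22 of the 33 genes, or 66.7%, against 35.0% of all genes with at least 20 counts. Red blood cells 1 was the highest for 4 and red blood cells 3 for 7. The median over the 18 tested genes of the log2 CPM relative to the saline mean was 0.05, 1.00 and 0.23 in the treated libraries, and −0.26 to 0.22 in the 4 saline libraries. By this measure red blood cells 1 lay within the saline range.

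**Figure D1:**
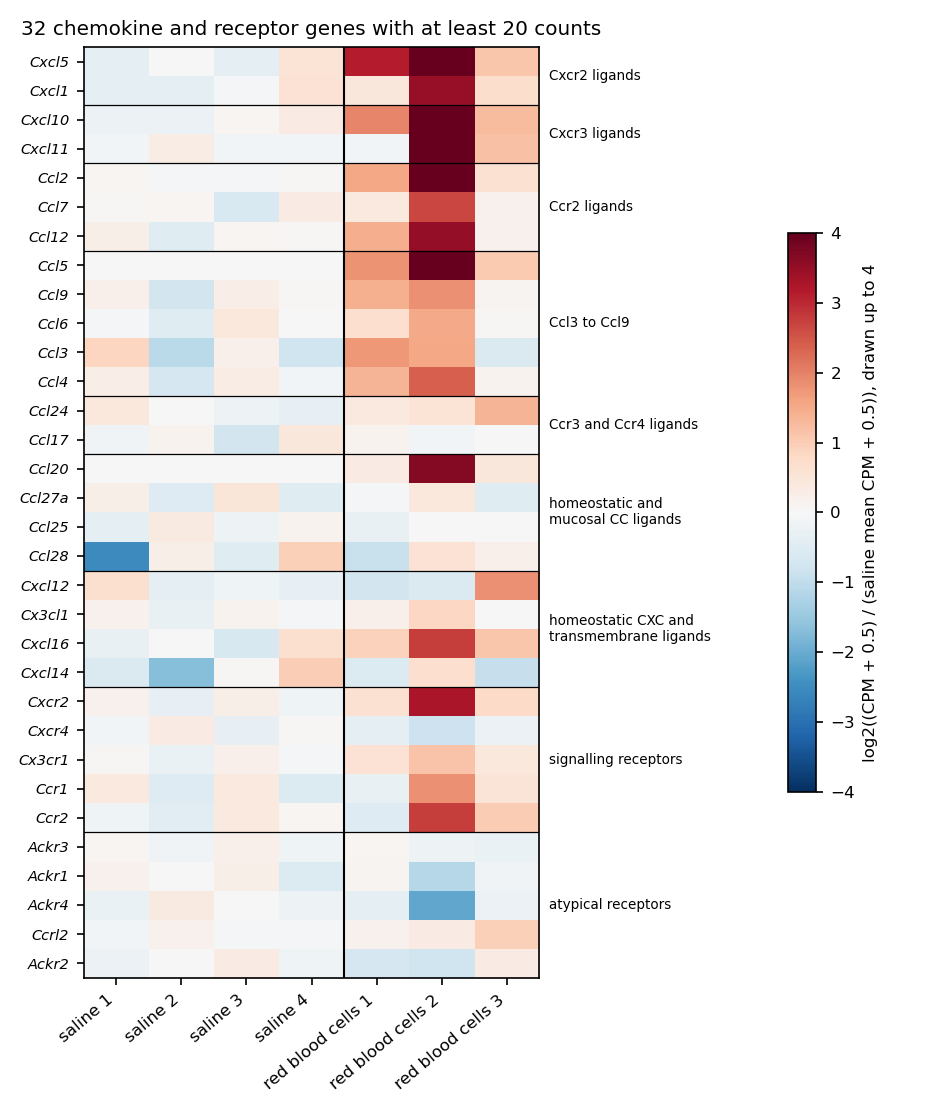
Heat map of 32 of the 33 genes with at least 20 counts, in rows grouped by role, over the 7 libraries in columns; colour gives log2 of CPM plus 0.5 over the mean saline CPM plus 0.5, drawn up to 4, with values reaching 6.62. The ligands of Cxcr2, Cxcr3 and Ccr2 are darkest in red blood cells 2, and the atypical receptors stay pale apart from lower values of Ackr1 and Ackr4 in that library and a higher one of Ccrl2 in red blood cells 3.

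The ligands of Cxcr2, which draw neutrophils, were nearly absent with saline. Cxcl5 (chr5:90907157-90909484, GRCm39) had 42, 422 and 5 counts in the treated libraries, and 0, 1, 0 and 2 counts in saline 1 to 4. The groups did not overlap, and red blood cells 2 held 91.2% of the CPM of its group. The pooled ratio of counts was 200 (95% exact counting interval 67.9 to 972), and 29.8 (9.60 to 150) without red blood cells 2. These intervals, here and for the ratios that follow, cover counting error only. DESeq2's adjusted p for Cxcl5 was 0.0127.

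Cxcl1, the mouse counterpart of the growth-regulated oncogene chemokines, had 3, 44 and 3 counts in the treated libraries and 0, 0, 1 and 2 with saline. Its high value stood in red blood cells 2 alone, and on the CPM scale the groups overlapped. The pooled ratio was 21.3 (6.88 to 107), and 3.81 (0.813 to 23.5) without that library. DESeq2 did not call Cxcl1 (adjusted p = 0.0845). Cxcl2 and Cxcl3, whose promoters carry the same 10 letters as that of Cxcl1, had 3 and 2 counts in all, each of them in red blood cells 1 and 2, and Cxcl15 had 1, in saline. Over these 5 genes, which lie together on chr5:90907157-91053797, the groups held 524 and 7 counts.

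The receptor of these ligands was low as well. Cxcr2 had 6, 49 and 5 counts in the treated libraries and 3, 1, 4 and 1 with saline. The groups did not overlap, with 81.7% of the CPM of the treated group in red blood cells 2. DESeq2 did not call it (adjusted p = 0.0780). The other neutrophil receptor, Cxcr1, had 1 count.

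Markers of monocytes and neutrophils were, in sum, above the saline range in red blood cells 2 alone among the treated libraries. Over 13 such markers the summed level was 15.3, 97.9 and 24.3 CPM in the treated libraries, and 11.5 to 30 CPM with saline. Of the 13, 4 were tested and 4 of 4 were above 0 in log2 fold change. At an unadjusted p under 0.05, 1 was higher, against 5.22% of all genes. None was called by edgeR and 1 by DESeq2, which called 1.11% of all genes higher. The sums of red blood cells 1 and 3 lay inside the saline range. Of the 13 markers, 8 had a higher and 4 a lower mean CPM in the treated group. S100a9, a calcium-binding protein abundant in neutrophils, had 11, 294 and 18 counts in the treated libraries and 36, 5, 11 and 19 with saline. Csf3r, the receptor of granulocyte colony-stimulating factor, had 21, 109 and 19 counts against 11, 10, 10 and 11. S100a8 had 4, 111 and 11 counts against 23, 4, 3 and 5, and Retnlg had 0, 26 and 1 against 0, 1, 0 and 0. Genes of granule proteins differed in layout. Mmp8 had 3, 31 and 0 counts against 1, 0, 0 and 0. Prtn3 had 61, 41 and 68 counts against 62, 50, 58 and 37, and Ltf had 5, 7 and 5 against 13, 1, 10 and 41. Ltf, Mmp8 and Retnlg were named after their values were seen. Ly6g, which defines mouse neutrophils, was at 0 in all 7 libraries. The part of these cells in the ligand and receptor counts was not tested.

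The Cxcr3 ligands, which are induced by interferons and draw T and NK cells, showed the same layout. Cxcl10 (chr5:92494497-92496748, GRCm39), whose promoter carries both motifs, had 14, 67 and 5 counts in the treated libraries and 0, 0, 1 and 1 with saline. The groups did not overlap. Its pooled ratio was 54.9 (14.8 to 461), and 18.1 (4.36 to 160) without red blood cells 2. DESeq2 called it (adjusted p = 0.00189), and edgeR did so without red blood cells 3 (adjusted p = 0.0205).

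Cxcl11, which RefSeq classes as a transcribed pseudogene in the reference, had 0, 72 and 4 counts in the treated libraries and 0, 1, 0 and 0 with saline. Red blood cells 1 had none, so the groups overlapped. The pooled ratio was 97.1 (16.9 to 3885), and 7.62 (0.754 to 375) without red blood cells 2, and DESeq2 did not call Cxcl11 (adjusted p = 0.615). Cxcl9 had 9 counts, all in red blood cells 2, and was at least 3.83-fold higher than a floor of 3 counts over the saline group. Across the 3 genes, at chr5:92469190-92511155, the groups held 171 and 3 counts.

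Cxcr3 itself had 7 counts in the treated libraries and 4 with saline. Markers of T, NK and B cells stayed near 0: 13 genes summed to 2.13 to 4.16 CPM with red blood cells and 1.28 to 2.63 CPM with saline, none passed the filter, and Cd8a, Nkg7, Ncr1 and Ms4a1 were at 0 in every library. Interferon-response genes were highest in the library with the most Cxcl10. The 10 genes listed summed to 1153, 2794 and 503 CPM in the treated libraries, against 181 to 264 CPM with saline, with 10 of 10 above 0. At an unadjusted p under 0.05, 10 were higher, against 5.22% of all genes. EdgeR called 0 and DESeq2 9, where they called 0.0404% and 1.11% of all genes higher. Irf7, a transcription factor of the interferon response, was at 56.4, 284 and 21 CPM with red blood cells and 3.71 to 6.72 CPM with saline.

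Of the 4 Ccr2 ligands, which recruit monocytes, 3 had counts in every treated library. Ccl2 (chr11:81926403-81928278, GRCm39), also known as monocyte chemoattractant protein, had 23, 173 and 7 counts, against 5, 4, 5 and 3 with saline. Each treated library exceeded every saline library in CPM, from 1.27 to 26.2 CPM against 0.598 to 0.739 CPM. DESeq2 gave a log2 fold change of 3.93 ± 1.10 (SE; adjusted p = 0.0296). Red blood cells 2 held 86.3% of the CPM of its group, and the ratio of mean CPM was 15.1 with it and 3.11 without it.

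Ccl12 had 16, 67 and 3 counts in the treated libraries and 4, 1, 4 and 2 with saline. Red blood cells 3 lay at 0.543 CPM, inside the saline range of 0.160 to 0.591 CPM. DESeq2 called Ccl12 at a log2 fold change of 3.32 ± 0.92 (SE; adjusted p = 0.0271), and edgeR did so without red blood cells 3 (adjusted p = 0.0266). Red blood cells 2 held 79.9% of the CPM of its group, and the ratio of mean CPM was 9.99 with it and 3.01 without it.

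Ccl7 had 4, 29 and 2 counts in the treated libraries and 2, 2, 0 and 2 with saline. Red blood cells 2 was far above saline, red blood cells 1 lay just above it in CPM (0.502 against at most 0.463) and red blood cells 3 lay inside its range. DESeq2 did not call Ccl7 (adjusted p = 0.446). Ccl8 had 4 counts, all in red blood cells 2. Together with the eotaxin gene Ccl11, which had 1 count in each group, these neighbours at chr11:81926403-82007625 held 329 counts in the treated libraries and 35 with saline.

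**Figure D2:**
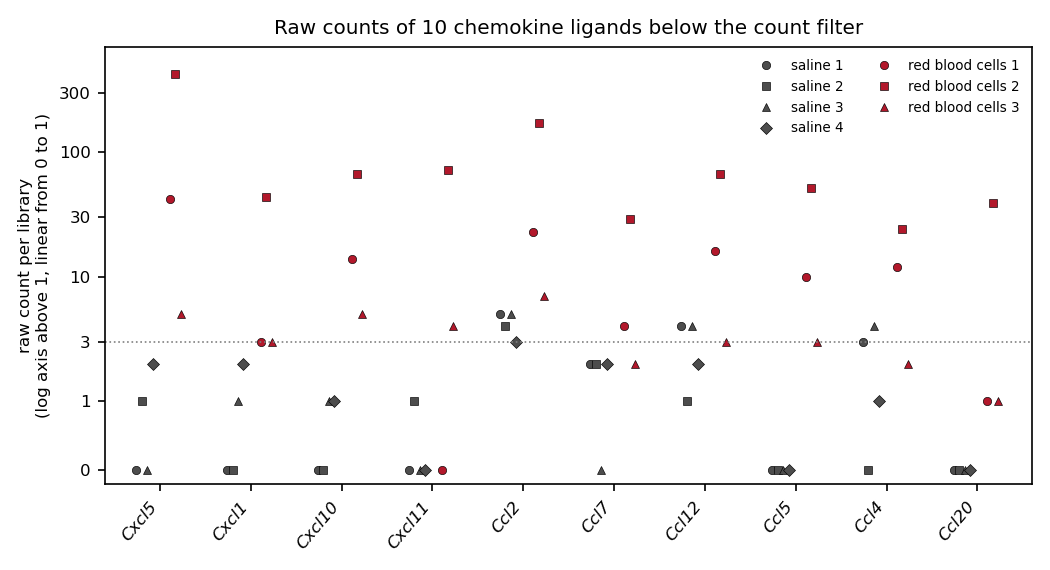
Raw counts per library of 10 ligands below the count filter, on an axis that is linear from 0 to 1 and logarithmic above; grey points are the 4 saline libraries, red points the 3 libraries treated with red blood cells, and the dotted line is 3 counts. Saline points lie at 0 to 5 counts, and the red squares of red blood cells 2 reach 422 for Cxcl5 and 173 for Ccl2.

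The ligands Ccl3, Ccl4, Ccl5, Ccl6 and Ccl9, most of which bind Ccr1, were in part present without treatment. Ccl5, the chemokine RANTES, was at 0 in all 4 saline libraries, which allows up to 0.358 to 0.683 CPM in each, and had 10, 52 and 3 counts with red blood cells. It was at least 27.7-fold higher than a floor of 3 counts over the saline group, and at least 8.25-fold higher without red blood cells 2. DESeq2 called it (adjusted p = 0.000639), and edgeR without the filter did not (unadjusted p = 0.0846).

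Ccl9 (chr11:83463743-83469462, GRCm39), a macrophage and myeloid ligand of Ccr1 that is found in rodents, was at 14.7, 19.5 and 5.61 CPM with red blood cells and 6.06, 2.89, 6.34 and 5.33 CPM with saline. Red blood cells 1 and 2 were above every saline library, and red blood cells 3 lay among them. The means were 13.3 ± 7.06 CPM (SD, n = 3) and 5.15 ± 1.57 CPM (SD, n = 4). This gave a log2 fold change of 1.36 ± 0.41 (SE) at an unadjusted edgeR p of 0.0107, or 0.278 after adjustment, and without red blood cells 3 edgeR called it at 1.71 (adjusted p = 0.00685).

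Ccl6, a rodent ligand of Ccr1 made by myeloid cells, was at 5.52, 10.4 and 3.44 CPM with red blood cells and 3.10, 2.25, 4.67 and 3.24 CPM with saline. The groups overlapped through red blood cells 3. On the log2 scale the difference was 0.95 ± 0.37 (SE) at an unadjusted edgeR p of 0.0266, or 0.403 after adjustment. The estimate was 0.44 without red blood cells 2.

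Ccl3 and Ccl4 are the macrophage inflammatory proteins, and they neighbour each other on chromosome 11. Ccl3 ranged from 0.905 to 6.40 CPM with red blood cells and from 0.481 to 3.25 CPM with saline, a log2 fold change of 1.40 ± 0.71 (SE; adjusted p = 0.614 in edgeR), and 38.4% of its exon bases are shared with Gm53692 on the other strand, which had 11 counts. Ccl4 had 12, 24 and 2 counts in the treated libraries and 3, 0, 4 and 1 with saline. Red blood cells 3 lay inside the saline range for both genes, and edgeR called Ccl4 without that library (log2 fold change 2.96, adjusted p = 0.0432). The ratio of mean CPM of Ccl4 was 6.36, and 3.24 without red blood cells 2. The 5 genes from Ccl5 to Ccl4, at chr11:83416604-83555509, held 605 and 275 counts.

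Among the ligands of Ccr3 and Ccr4, Ccl24 was the one tested. Ccl24, an eotaxin made by macrophages, was at 1.88, 2.12 and 4.16 CPM with red blood cells and 1.92, 1.28, 1.08 and 0.926 CPM with saline. Red blood cells 1 lay just under saline 1, and red blood cells 3 was the highest. The log2 fold change was 1.00 ± 0.40 (SE) at an unadjusted edgeR p of 0.0291, or 0.422 after adjustment. Without red blood cells 3 it was 0.59. It passed the filter level of 1.49 CPM in 3 libraries treated with red blood cells and in 1 with saline, so its passing rested largely on the treated group. Ccl17 had 5, 3 and 3 counts against 3, 4, 1 and 4, Ccl11 and Ccl22 had 2 and 1 in all, and Ccl26 had none.

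The homeostatic and mucosal CC ligands overlapped between the groups, with 1 exception. Ccl27a, a skin and epithelial ligand of Ccr10, was at 7.28, 10.4 and 5.25 CPM with red blood cells and 9.16, 5.13, 10.9 and 5.33 CPM with saline. Its log2 fold change was −0.01 ± 0.31 (SE; adjusted p = 0.995 in edgeR). Ccl25, the ligand of Ccr9 known from thymus and gut, was at 4.14, 5.14 and 5.25 CPM against 3.84, 6.74, 4.43 and 5.79 CPM, a log2 fold change of −0.09 ± 0.25 (SE; adjusted p = 0.956 in edgeR). The libraries of both groups were interleaved for these genes, and the near-identical copies of Ccl27a and Ccl21a in the mouse genome make their counts uncertain.

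Ccl28, a mucosal ligand of Ccr10, ranged from 2.01 to 6.5 CPM with red blood cells and from 0.296 to 8.57 CPM with saline. The exception was Ccl20, the ligand of Ccr6, which had 1, 39 and 1 counts in the treated libraries and 0 in all 4 saline libraries. The groups did not overlap, but red blood cells 2 held 95.1% of the CPM, and the other 2 libraries had 1 count each. It was at least 17.5-fold higher than a floor of 3 counts over the saline group. DESeq2 did not call Ccl20 (adjusted p = 0.534). Ccl21a and Ccl21b had 9 and 3 counts, all with saline, and Ccl1, Ccl19, Ccl21d and Ccl27b had none.

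Of the homeostatic CXC and membrane-bound ligands, 3 were abundant enough to test. Cxcl16 (chr11:70345215-70350810, GRCm39), a membrane-bound chemokine and scavenger receptor whose receptor is Cxcr6, was at 8.92, 33.1 and 10.1 CPM with red blood cells and 3.55, 4.33, 2.63 and 7.18 CPM with saline. Every treated library exceeded every saline library, red blood cells 2 by the most. The means were 17.4 ± 13.6 CPM (SD, n = 3) and 4.42 ± 1.97 CPM (SD, n = 4). This gave a log2 fold change of 2.03 ± 0.58 (SE) at an unadjusted edgeR p of 0.0107, or 0.278 after adjustment. The estimate was 1.16 without red blood cells 2. DESeq2 called Cxcl16 (log2 fold change 2.01, adjusted p = 0.00412). Of its exon bases 30.4% are shared with Zmynd15 on the other strand, which had 47 counts, and the labels do not say whether the counting used strand. Its receptor Cxcr6 had 4 counts, all with red blood cells.

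Cx3cl1, fractalkine, the other membrane-bound chemokine and the only ligand of Cx3cr1, was at 68.2, 107.5 and 59.0 CPM with red blood cells and 66.9, 48.8, 65.6 and 57.7 CPM with saline. The value of red blood cells 2 was well above the saline range, with red blood cells 1 just above it and red blood cells 3 within it. On the log2 scale the difference was 0.39 ± 0.22 (SE; adjusted p = 0.664 in edgeR), and 0.09 without red blood cells 2. Gm51543 on the other strand shares 50.3% of its exon bases and had 139 counts.

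Cxcl12, the ligand of Cxcr4 and Ackr3 that is made by stromal and vascular cells, was at 40.1, 44.3 and 239 CPM with red blood cells and 104, 51.7, 58.6 and 53.3 CPM with saline. Red blood cells 3 was far above the rest, and the other treated libraries were below every saline library. The log2 fold change was 0.67 ± 0.77 (SE; adjusted p = 0.881 in edgeR), and −0.67 without red blood cells 3, so 1 library set its direction. That library also had the highest mesenchyme and pericyte markers and the highest sum of 8 endothelial markers, at 1246 CPM against 840 to 1041 CPM in the other 6. Of the 8 endothelial markers, 4 had a higher and 4 a lower mean CPM in the treated group. In saline 1 they summed to 1041 CPM, against 989 to 1012 CPM in the other saline libraries. The mesenchyme and pericyte markers summed to 2060 CPM in saline 1, within the 1933 to 2093 CPM of the other saline libraries. Cldn5, an endothelial tight-junction gene named after its values were seen, was at 16.6, 13.5 and 103 CPM against 44.2, 29.2, 19.7 and 26.6 CPM. The part of these cells in the Cxcl12 level was not tested. Cxcl14 had 5, 14 and 2 counts against 4, 0, 10 and 12, Cxcl13 and Cxcl17 had 4 and 6 in all, and Xcl1 had none.

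**Figure D3:**
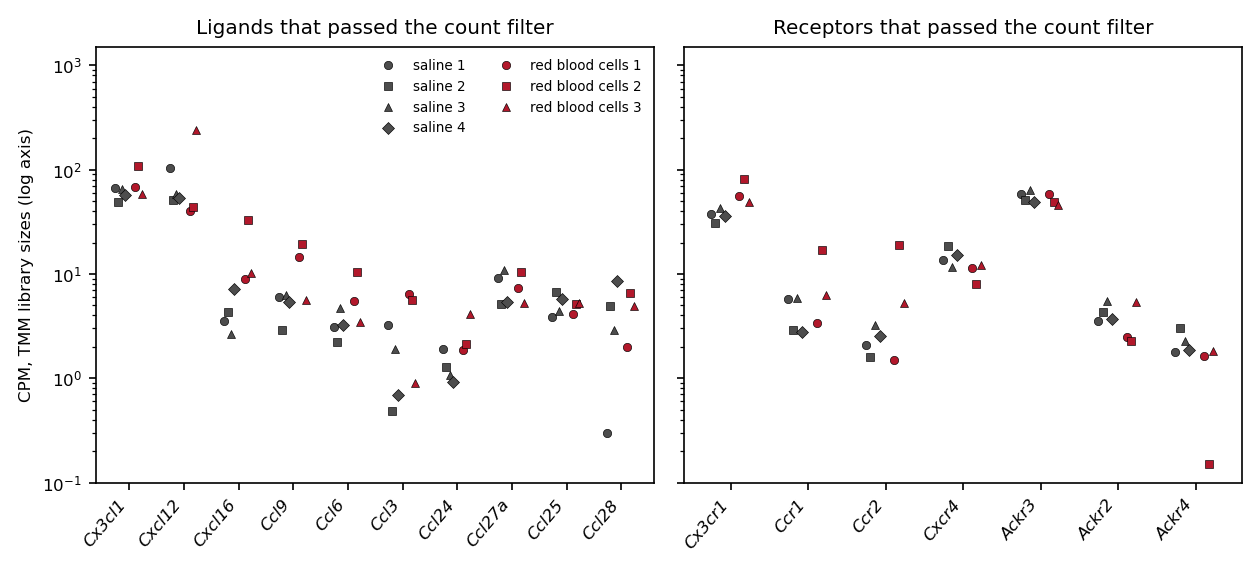
CPM per library on a logarithmic axis for the 10 ligands (left) and 7 of the 8 receptors (right) that passed the count filter; grey points are the 4 saline libraries and red points the 3 libraries treated with red blood cells, with marker shape giving the replicate number. All red points of Cxcl16 and Cx3cr1 lie above the grey ones, and the single high red point of Cxcl12 is red blood cells 3 at 239 CPM.

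Among the 18 signalling receptors, 5 were tested and 4 of the 5 had an estimate above 0. Cx3cr1 (chr9:119877749-119897362, GRCm39), the fractalkine receptor of macrophages and microglia, was at 55.4, 81.7 and 49.2 CPM with red blood cells and 37.8, 30.8, 42.7 and 35.7 CPM with saline. The lowest treated library was above the highest saline library. The means were 62.1 ± 17.2 CPM (SD, n = 3) and 36.8 ± 4.94 CPM (SD, n = 4), and the log2 fold change was 0.75 ± 0.18 (SE) at an unadjusted edgeR p of 0.00255, or 0.169 after adjustment. DESeq2 called it (0.76, adjusted p = 0.00677), as did edgeR without red blood cells 3 (0.89, adjusted p = 0.0329), and without red blood cells 2 the estimate was 0.51. It gave the smallest p of the 18.

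Ccr2, which marks monocytes, was at 1.51, 18.9 and 5.25 CPM with red blood cells and 2.07, 1.60, 3.23 and 2.55 CPM with saline. Red blood cells 1 was below every saline library, and red blood cells 2 held 73.7% of the CPM of its group. This gave a log2 fold change of 1.83 ± 0.81 (SE) at an unadjusted edgeR p of 0.0615, or 0.562 after adjustment. Without red blood cells 2 it was 0.45.

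Ccr1, which binds Ccl3, Ccl5, Ccl6 and Ccl9, was at 3.39, 16.8 and 6.34 CPM with red blood cells and 5.76, 2.89, 5.86 and 2.78 CPM with saline. The groups overlapped. Its log2 fold change was 0.99 ± 0.56 (SE; adjusted p = 0.669 in edgeR), and 0.11 without red blood cells 2.

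Cxcr4 (chr1:128515936-128520036, GRCm39), the receptor of Cxcl12 on progenitors, leukocytes and developing vessels, was the 1 tested gene of the group that was lower at an unadjusted p under 0.05. It was at 11.4, 8.02 and 12.3 CPM with red blood cells and 13.6, 18.5, 11.7 and 15.1 CPM with saline. Red blood cells 3 lay inside the saline range and the other treated libraries below it. The means were 10.6 ± 2.27 CPM (SD, n = 3) and 14.7 ± 2.85 CPM (SD, n = 4). The log2 fold change was −0.47 ± 0.20 (SE) at an unadjusted edgeR p of 0.0364, or 0.460 after adjustment. Without red blood cells 2 it was −0.30.

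The signalling receptors below the filter were scarce. Besides Cxcr2, none of the 13 signalling receptors below the filter had more than 19 counts in all: Ccr9 and Ccr10 had 19 each, Ccr3 had 18, Cxcr3 11, Ccr8 9, Cxcr5 5, Ccr6, Ccr7 and Cxcr6 4 each and Cxcr1 1. Xcr1 and Ccr4 had none, which over the 7 libraries allows up to 0.0653 CPM.

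**Figure D4:**
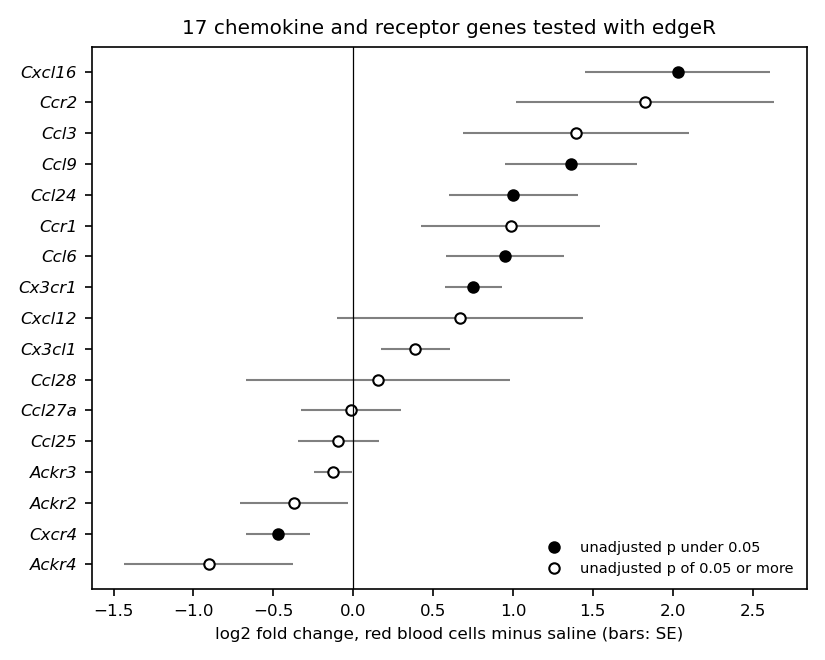
Log2 fold change, red blood cells minus saline, with its SE for 17 of the 18 tested genes, sorted; filled points have an unadjusted edgeR p under 0.05 and none has an adjusted p under 0.05. The filled points above 0 are Cxcl16, Ccl9, Ccl24, Ccl6 and Cx3cr1, and Cxcr4 at −0.47 is the filled point below 0.

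Of the 5 atypical receptors, which bind chemokines without G-protein signalling, 3 were tested and all 3 had estimates below 0. None was called by edgeR or DESeq2, and 0 had an unadjusted edgeR p under 0.05. Ackr3, a scavenger of Cxcl12, was at 58.8, 48.9 and 45.8 CPM with red blood cells and 58.4, 51.0, 64.5 and 49.1 CPM with saline, a log2 fold change of −0.13 ± 0.12 (SE; adjusted p = 0.828 in edgeR). The groups overlapped. Ackr2, which removes inflammatory CC chemokines, had a log2 fold change of −0.37 ± 0.34 (SE; adjusted p = 0.825 in edgeR).

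Ackr4, which binds Ccl19, Ccl21 and Ccl25, had one of −0.91 ± 0.53 (SE; adjusted p = 0.661 in edgeR), with 1 count in red blood cells 2 against 8 to 19 counts in the saline libraries. Ackr1, the Duffy antigen receptor found on erythroid and venular endothelial cells, had 11, 2 and 6 counts in the treated libraries and 10, 8, 13 and 3 with saline. Ccrl2, which presents chemerin, had 5, 5 and 8 counts against 3, 4, 4 and 2. Red blood cells 2 had the lowest value of both Ackr1 and Ackr4.

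Per exon length, in RPKM, which divides CPM by the exon length in kilobases, the levels with saline were led by genes of the Cxcl12 and fractalkine axes. Ackr3 was at 23.9 ± 3.03 RPKM (SD, n = 4) and Cx3cl1 at 19 ± 2.66 RPKM (SD, n = 4). Cx3cr1, at 9.79 ± 1.32 RPKM, and Cxcl12, at 9.33 ± 3.45 RPKM, did not differ beyond their spread, and Cxcr4 followed at 5.11 ± 0.99 RPKM. The other 13 tested genes lay between 0.50 RPKM for Ccr2 and 2.44 RPKM for Cxcl16. From Cxcl16 down to Ackr4, neighbours in that order differed by less than the larger of their SDs. With red blood cells, Cx3cl1 was at 24.9 ± 8.20 RPKM (SD, n = 3) and Ackr3 at 21.9 ± 2.91 RPKM (SD, n = 3), and Cxcl16 was at 9.59 ± 7.52 RPKM (SD, n = 3).

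Chemokines under other symbols were both above 0 in log2 fold change. Pf4, platelet factor 4, which macrophages also make, had 83, 78 and 93 counts in the treated libraries and 64, 21, 55 and 20 with saline. In CPM it was 10.4 to 16.8 against 3.37 to 9.46, without overlap, at a log2 fold change of 1.08 ± 0.31 (SE; adjusted p = 0.228 in edgeR). Ppbp, the pro-platelet basic protein, had one of 0.65 ± 0.59 (SE; adjusted p = 0.823 in edgeR), and the 7 megakaryocyte and platelet markers summed to 17.1 to 21.9 CPM with red blood cells and 18.2 to 22.3 CPM with saline.

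The genes through which the receptors signal were listed as G-protein subunits, kinases, regulators and integrins. Of 35 such genes 34 were tested, 28 had an estimate above 0, against 49.9% of all genes, and the median log2 fold change was 0.13. At an unadjusted p under 0.05, 9 were higher and 0 lower, against 5.22% and 4.32% of all genes. EdgeR called 0, and DESeq2 called 3 higher, where it called 1.11% of all genes higher. The 3 were Dock2, an activator of Rac in migrating leukocytes (1.12 ± 0.23, SE), the leukocyte Rac gene Rac2 (1.29 ± 0.33, SE) and the integrin chain Itgb2 (1.38 ± 0.33, SE), whose edgeR adjusted p-values were 0.104, 0.176 and 0.138. The broadly expressed Gnb1, Cdc42, Gnai2 and Rac1 had estimates from −0.02 to 0.13. The macrophage markers, given below, were higher in the treated libraries as well, and their part in these values was not tested.

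Of 16 genes that cut chemokines or hold them on the cell surface, all were tested, 9 had an estimate above 0 and the median was 0.03. The protease Mmp9 (1.76 ± 0.44, SE; adjusted p = 0.170 in edgeR), which DESeq2 called, was the only gene of these higher at an unadjusted p under 0.05. Over all genes 5.22% were higher and 4.32% lower at that threshold. Mmp2 and the heparan sulfate proteoglycan Gpc3 were lower at that threshold, at −0.16 ± 0.07 (SE) and −0.15 ± 0.06 (SE), and neither was called. Adam10, the sheddase of Cx3cl1 and Cxcl16, had an estimate of −0.10 ± 0.08 (SE; adjusted p = 0.779 in edgeR).

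Macrophage markers, like Cx3cr1, summed above every saline library in each treated library. All 15 were tested and had estimates above 0, with a median log2 fold change of 0.74. Of these, 1 was called by edgeR and 8 by DESeq2, where 0.0404% and 1.11% of all genes were called higher. Their sum was 350, 499 and 512 CPM in the treated libraries, and 231 to 310 CPM with saline. The called gene, Adgre1, which encodes F4/80, was at 22.0, 31.0 and 27.9 CPM with red blood cells and 11.7 to 14.8 CPM with saline (log2 fold change 1.09 ± 0.15, SE; adjusted p = 0.0280 in edgeR). The estimate of Cx3cr1, 0.75, lay next to the median of these markers, and Csf1r, the receptor of macrophage growth factors, was at 0.56 ± 0.14 (SE). In the summed macrophage level red blood cells 3 was the highest library, at 512 CPM against 499 CPM in red blood cells 2. Mrc1, the most abundant of the 15 markers, was at 80.2, 117 and 157 CPM in the treated libraries. C1qa and C1qc, which followed Mrc1 and Csf1r in abundance, were at 48.6 and 47.8 CPM in red blood cells 2. In red blood cells 3 they were at 42.2 and 34.6 CPM. The sums of the Cxcr2, Cxcr3 and Ccr2 ligands, and of Ccl3, Ccl4, Ccl5, Ccl6 and Ccl9, were highest in red blood cells 2. Among the treated libraries these sums were lowest in red blood cells 3.

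NF-kB response genes were above saline in every treated library. The 6 genes summed to 276, 584 and 213 CPM in the treated libraries, against 128 to 141 CPM with saline, with 6 of 6 above 0. EdgeR called 2 and DESeq2 4, where they called 0.0404% and 1.11% of all genes higher. Nfkb2 (1.35 ± 0.19, SE; adjusted p = 0.0306 in edgeR) and Relb (1.76 ± 0.26, SE; adjusted p = 0.0460 in edgeR), subunits of the noncanonical pathway, were the called ones. The part of macrophage number, of interferon and of NF-kB in the chemokine levels was not tested.

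By library, the Cxcr2 ligands summed to 5.90, 70.9 and 1.45 CPM in the treated libraries and to at most 1.16 CPM with saline. The Cxcr3 ligands summed to 1.76, 22.4 and 1.63 CPM, against at most 0.232 CPM, and the Ccr2 ligands to 5.40, 41.3 and 2.17 CPM, against 1.08 to 1.63 CPM. All 3 sums were above saline in every treated library. In red blood cells 3 the margin was small for the Cxcr2 ligands (1.45 against 1.16 CPM) and the Ccr2 ligands (2.17 against 1.63 CPM). In that library 3 counts corresponded to 0.547 CPM. Ccl3, Ccl4, Ccl5, Ccl6 and Ccl9 summed to 29.4, 47.0 and 10.9 CPM against 5.62 to 13.4 CPM, where red blood cells 3 lay inside the saline range. The 18 signalling receptors summed to 78.1, 148 and 82.7 CPM against 58.7 to 69.3 CPM, most of it Cx3cr1, and the 5 atypical receptors to 52.3 to 64.9 CPM against 55.8 to 74.3 CPM.

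**Figure D5:**
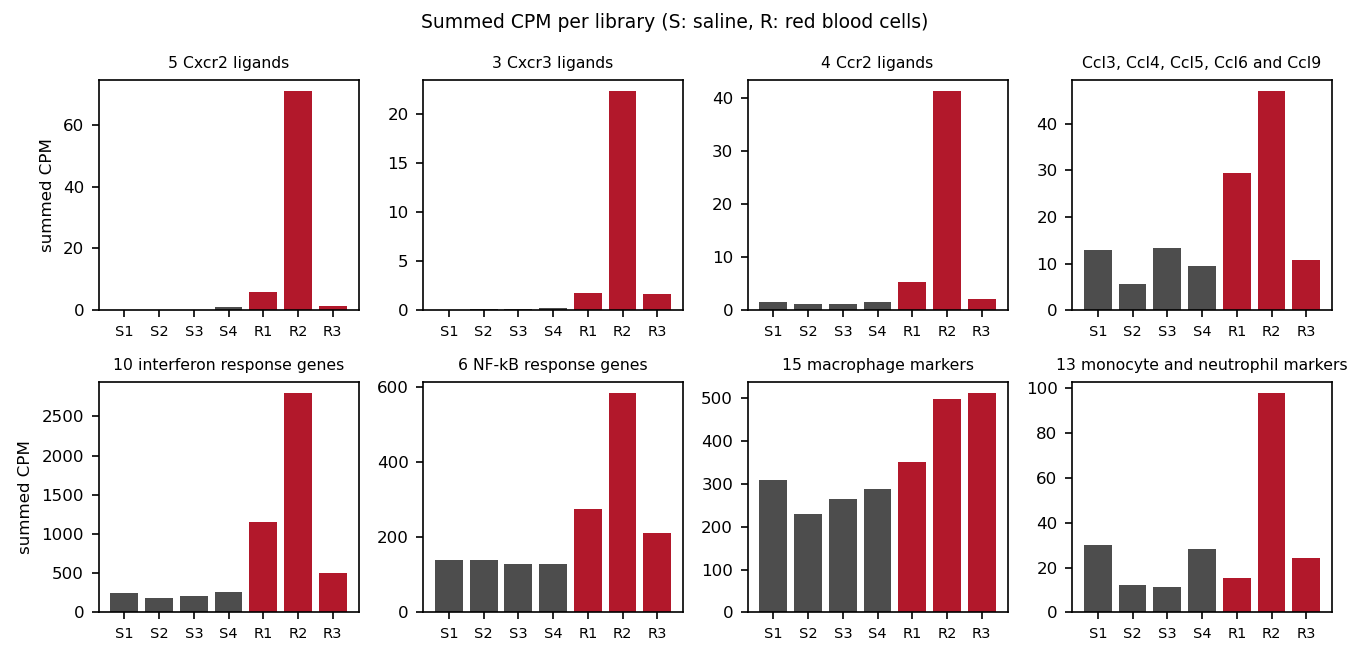
Summed CPM per library for 4 groups of ligands (top) and for interferon and NF-kB response genes, macrophage markers and monocyte and neutrophil markers (bottom); grey bars are saline 1 to 4 and red bars red blood cells 1 to 3, each panel with its own axis from 0. Red blood cells 2 has the tallest bar in all panels but that of the macrophage markers, where red blood cells 3 reaches 512 CPM.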

How the data were processed

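The authors deposited 1 table of raw counts per gene for 7 libraries, with gene positions and exon lengths, according to its header. Trimming with cutadapt 2.5, alignment with STAR 2.6.1b and counting with featureCounts 2.0.6, on GRCm39, are named in the submitters' processing notes. The sources used here do not give the annotation release, or whether counting took account of strand or of reads with several matches. Of 40879 genes listed, 6 on broken lines were left out, and lines without a gene name held 0.107% of counts. The filter (filterByExpr, minimum count 10) kept 14869 genes for edgeR 4.0.16 (R 4.3.3; TMM, robust quasi-likelihood, Benjamini-Hochberg adjustment over all genes tested), with a common biological coefficient of variation of 13.7%. The scripts were tested on simulated data. Alternatives used DESeq2 1.42.0, limma 3.58.1, other scalings, other filters and libraries left out. Figures used matplotlib 3.10.9. CPM and RPKM use TMM library sizes and the deposited exon lengths.

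The genes, lists and rules were chosen with earlier results of these data known. Values in every library are given for tested genes with an unadjusted p under 0.05 or at least 200 counts, and raw counts for genes below the filter with at least 20; of other lists, the 4 most abundant genes at most, those past a threshold and defining markers at 0 are named. Dock2, Rac2, Itgb2, Mmp9, Ltf, Mmp8, Retnlg and Cldn5 were named after their values were seen. Ratios of pooled counts carry exact 95% counting intervals, and a floor of 3 counts stands for 0. The values of 1 gene are not reported here, though it stays in the counts over the group.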

Additional observations from a re-analysis of the deposited data

Results flagged for a closer look

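Among 29 genes of the group checked for a saline library far from the other 3, 2 were found. The rule, a Dixon test, flags about 1 in 20 by chance if values are normally distributed. That rate does not hold for genes with few counts. Cxcl12 was at 104 CPM in saline 1, while the other 3 saline libraries lay at 51.7 to 58.6 CPM. Cxcl11 was at 0.160 CPM in saline 2, which is a single count, while the other 3 were at 0. Such a gene is flagged by construction.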

How the results depend on the processing

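All 19 settings ran. The count of chemokine and receptor genes called higher was 0 in edgeR and became 7 with DESeq2, and ranged from 0 to 5 with 1 library left out, the 5 without red blood cells 3. None was called lower under any setting tried. The count of all genes called, 9 in edgeR, was 280 with DESeq2, 48 with limma-voom and sample weights, 136 without a count filter, 16 without robust estimation, 40 without red blood cells 2 and saline 4, and 1 to 283 with 1 library left out. The median log2 fold change of the group was 1.01 with DESeq2, over 40 genes, and 1.01 without a count filter, over 54, and with 1 library left out it ranged from 0.20, without red blood cells 2, to 0.89. The labels do not say whether the replicate numbers pair the libraries. Deviations of same-numbered libraries correlated at −0.01, −0.17 and −0.17. Those of libraries with different numbers correlated at −0.21 to 0.26, a range that holds these values, so the correlations cannot decide it. With the replicate number as a block, 2 of all genes were called, 0 of the group higher, 0 lower, and the median was 0.67. Signs changed for genes close to 0 or led by 1 library: with sample weights Ccl27a was at 0.061 and Cxcl12 at −0.24, with 1 library left out Ccl27a ranged from −0.30 to 0.22, Cxcl12 from −0.67 to 1.07 and Ccl25 from −0.22 to 0.0561, and without red blood cells 2 and saline 4 Ccr1 was at −0.0348. Over the alternatives, the adjusted p of Cx3cr1 ranged from 0.00677 to 0.525, that of Cxcl16 from 0.00412 to 0.591 and that of Ccl9 from 0.00685 to 0.721. The cause of these changes was not tested. The count filter left 46 of the 64 genes out of the main test.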
